A study of Mus musculus with 6 samples.

Results

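A set of 8 genes known from the fetal liver and its progenitor cell, the hepatoblast, was followed in adult mouse liver. The genes were Afp, Gpc3, Igf2, Dlk1, Cd24a, Sox4, Bicc1 and Pkhd1, matched by symbol and making up 8 of the 54232 genes counted. RNA came from livers of chow-fed male C57BL/6 mice, 8 to 10 weeks of age, with 3 libraries for each of 2 genotypes. FXR, the nuclear receptor for bile acids, was missing in all of them. SKO mice (Fxr-/- Xbp1fl/fl) had floxed Xbp1 alleles, while DKO mice (Fxr-/- Xbp1LKO) also lacked XBP1, which drives part of the response to misfolded proteins, in the liver. The sources used here do not give the Cre driver or the exons removed. Mice with intact FXR were not analysed here, so each comparison is between livers with and without hepatic XBP1, all lacking FXR. Any other difference between the groups of libraries cannot be told apart from genotype.

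Hepatoblasts give rise to hepatocytes and to cholangiocytes, the cells lining the bile ducts. Afp, Gpc3, Igf2 and Dlk1 are active in the fetal organ, are silenced in hepatocytes around or after birth, and can return in regeneration or liver cancer. Cd24a, Sox4, Bicc1 and Pkhd1 are linked to the progenitor or to its biliary branch, and several stay active in adult bile ducts. In RNA from whole tissue, fewer or more cells of a type and less or more RNA per cell cannot be told apart.

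Afp, Cd24a and Bicc1 rose in DKO, by 2.12-fold to 2.59-fold, and in each of them every DKO library was above every SKO library. Sox4, Gpc3 and Pkhd1 did not pass the test. Dlk1 and Igf2 were too rare to be tested, with 13 and 2 reads over the DKO libraries and 0 in SKO. Thus 3 of 6 tested members were called higher and 0 lower, where called means an adjusted p under 0.05 in edgeR over 13986 genes. The count was 1 without SKO replicate 2 or SKO replicate 3, where Afp alone was called, and 5 with no filter on low counts. Of all those genes, 10.3% were called higher and 9.70% lower, 20.0% together. Every DKO library was above every SKO library for 20.2% of them and below for 19.4%. The median log2 fold change of the 6 was 1.10, against 0.0059 for all genes. Levels are normalised CPM (counts relative to the library total, scaled with TMM factors) and appear as mean ± SD with n = 3 per group, while log2 fold changes (DKO over SKO) carry their SE.

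Sequences before the start sites of 6 members were found in the RefSeq promoter table (GRCm38.p6), in 9 windows of 250 bases, since Igf2 has several starts. Cd24a and Bicc1 were not matched. Below are Afp, which was called, Dlk1, which had reads in DKO and none in SKO, and Gpc3, which is repressed after birth by ZHX2 like Afp and was not called. Each runs 5′ to 3′ on the gene's own strand and ends at the base before the RefSeq start. Capitals mark GTTAAN (a half-site of HNF1, either strand), TATAAA (the TATA box, gene's strand) and TGTTTAC (a forkhead motif, either strand).
Afp, chr5:90490464-90490713, plus strand: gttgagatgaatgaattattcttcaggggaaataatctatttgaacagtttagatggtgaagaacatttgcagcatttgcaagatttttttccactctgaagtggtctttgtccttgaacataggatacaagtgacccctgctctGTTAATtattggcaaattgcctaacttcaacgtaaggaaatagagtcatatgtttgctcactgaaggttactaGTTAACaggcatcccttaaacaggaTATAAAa
Dlk1, chr12:109452573-109452822, plus strand: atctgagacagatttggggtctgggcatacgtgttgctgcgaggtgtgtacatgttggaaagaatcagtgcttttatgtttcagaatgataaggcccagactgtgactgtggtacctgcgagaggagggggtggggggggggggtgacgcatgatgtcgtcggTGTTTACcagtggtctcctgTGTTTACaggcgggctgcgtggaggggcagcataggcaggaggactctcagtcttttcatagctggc
Gpc3, chrX:52613975-52614224, minus strand: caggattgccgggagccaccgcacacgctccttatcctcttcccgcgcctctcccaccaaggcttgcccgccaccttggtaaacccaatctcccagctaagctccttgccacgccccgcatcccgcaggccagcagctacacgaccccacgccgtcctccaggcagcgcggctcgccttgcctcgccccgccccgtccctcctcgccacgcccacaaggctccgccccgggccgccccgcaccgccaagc

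The Afp window was rich in A and T, with 36.0% G and C against a median of 52.4% over all 32851 windows in the table. GTTAAN began 105 and 32 bases before its RefSeq start, and TATAAA began 7 bases before it, or 30 bases before the GENCODE start. The half-site was present in 21.6% of all windows and TATAAA in 7.59%. The Gpc3 window had 71.6% G and C, 25 CpG dinucleotides and none of these motifs. In the Dlk1 window TGTTTAC began 87 and 67 bases before the start, and 3.17% of all windows held it. XBP1 itself is known to bind TGACGTGG and a longer element of CCAAT and CCACG with 9 bases between them. These letters, searched on both strands, were in 0 of the 9 windows, and in 0.563% and 0.113% of all windows. A match here describes letters, not a bound site.

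Library totals were 16966422 to 21107674 counts, and 3 counts, the limit that a count of 0 allows, equal 0.126 to 0.191 CPM (counting error only). Xbp1 reads were at 225, 260.3 and 254 CPM in SKO against 95.7, 67.0 and 68.2 CPM in DKO. Nothing in the labels ties the libraries to separate animals, and 4 titles (3 DKO, 1 SKO) carry 2 numbers of unstated meaning, so the p-values speak only to variation among these libraries, which may be technical. If totals alone set the scale, the all-gene median rises to 0.23 and the share of calls that are higher goes from 51.6% to 87.8% (65.3% with upper-quartile factors). Changes are therefore relative to the median gene. Hepatocyte transcripts dominated, with Alb at 53058 to 75508 CPM in SKO and 31355 to 41458 CPM in DKO.

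Afp encodes alpha-fetoprotein, the main plasma protein of the fetus (ENSMUSG00000054932, chromosome 5, 90490737 to 90508907 in mm10). The SKO libraries held 38, 44 and 51 reads of it and the DKO libraries 158, 130 and 128, or 2.41, 2.41 and 2.87 CPM against 6.63, 6.35 and 6.64 CPM. The DKO libraries were close together and all above SKO. With 128 to 158 reads each, counting noise alone would on average spread them more. Afp rose from 2.57 ± 0.264 to 6.54 ± 0.166 CPM, a 2.54-fold change with a 95% interval of 1.98 to 3.26 (adjusted p = 0.000576 in edgeR, log2 1.35 ± 0.16). It was called in each of the 6 fits that left out 1 library, with log2 fold changes of 1.29 to 1.43.

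**Figure D1:**
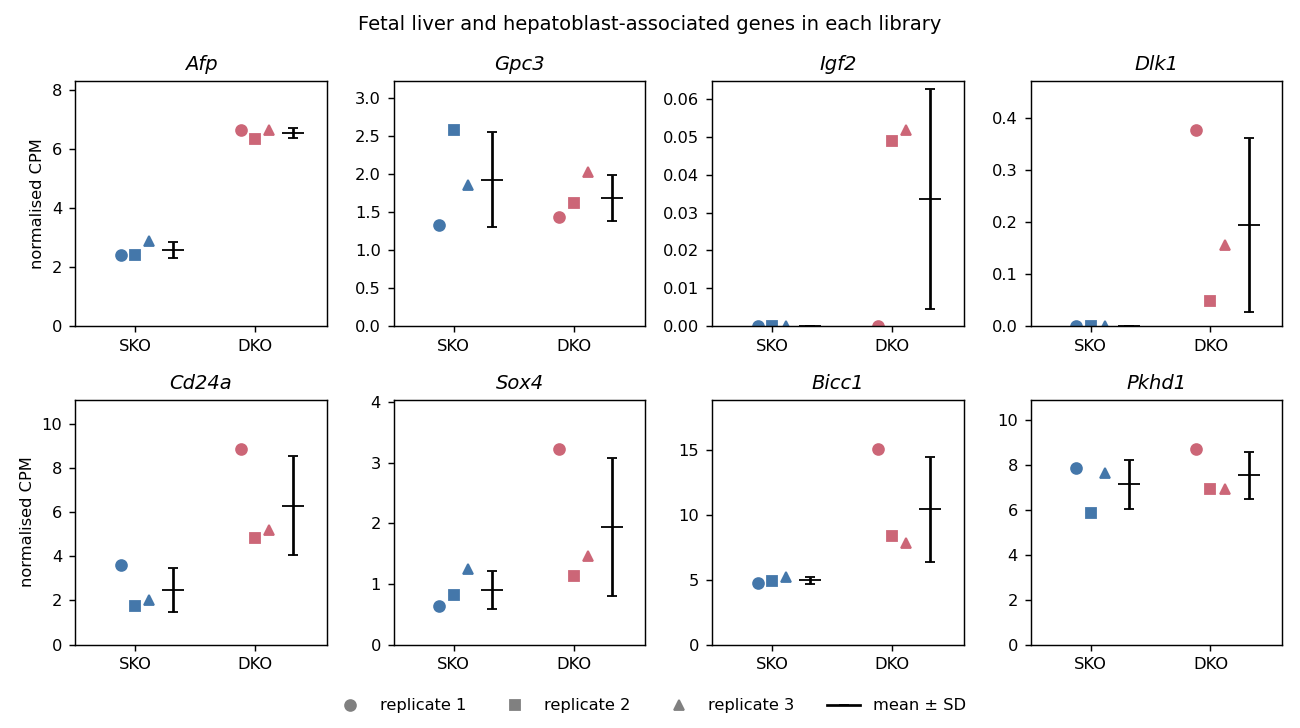
Normalised CPM (linear axes from 0, a separate scale per panel) of the 8 genes in each SKO (blue) and DKO (red) library, with 1 marker shape per replicate and black bars for mean ± SD (lower bars may end at 0). Afp lies at 6.35 to 6.64 CPM in DKO and 2.41 to 2.87 CPM in SKO. For Dlk1, Cd24a, Sox4, Bicc1 and Pkhd1 DKO replicate 1 lies above the other DKO libraries.

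Relatives of Afp in the albumin family went the other way or were not called. Albumin, Alb, fell by 0.89 ± 0.19 on the log2 scale (adjusted p = 0.00982, edgeR), a call lost without SKO replicate 2 (adjusted p = 0.0503). Afm, which encodes the vitamin E-binding protein afamin, fell from 219 ± 9.36 to 98.0 ± 13.2 CPM (adjusted p = 8.48e-05 in edgeR, log2 -1.16 ± 0.10). Gc, the vitamin D-binding protein, was at 7384 ± 477 and 7698 ± 290.0 CPM (adjusted p = 0.763 in edgeR, log2 0.06 ± 0.12). Within a library there were 31.9 to 54.1 reads of Afp per 1000000 reads of Alb in SKO and 160.1 to 202 in DKO, with no overlap between groups. Afp thus stayed rare beside albumin in every library.

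Zhx2, Zbtb20 and Zfhx3 encode factors known to repress Afp after birth. Of the 5 genes in this list, 0 were called in either direction, and the median log2 fold change was -0.22 (0.00 with total counts). Levels of Zhx2, which also represses Gpc3 and H19, were 21.9 ± 4.22 and 21.6 ± 0.738 CPM (adjusted p = 0.936 in edgeR, log2 -0.02 ± 0.13). Zbtb20 had 126, 181 and 179 CPM in SKO and 114, 116 and 138 CPM in DKO, so that the groups overlapped, and it missed the threshold (adjusted p = 0.0813 in edgeR, log2 -0.40 ± 0.14). It was called lower with DESeq2, with no filter on low counts and without SKO replicate 1 (adjusted p = 0.0298, 0.000203 and 0.00729), while total counts gave log2 -0.19. Zfhx3 (adjusted p = 0.207 in edgeR, log2 -0.22 ± 0.12) was not called. Zhx1, a relative of Zhx2 named after its values were seen, had 60.0, 58.9 and 57.4 CPM in SKO and 44.1, 50.7 and 54.2 CPM in DKO. Its groups did not overlap, and it was not called (adjusted p = 0.0642 in edgeR, log2 -0.24 ± 0.08) except with no filter, where it was lower (adjusted p = 0.0464). Every DKO library was also below SKO for Zhx3, which was not called (adjusted p = 0.239 in edgeR, log2 -0.16 ± 0.09).

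Gpc3 encodes glypican-3, a heparan sulfate proteoglycan of the cell surface found in fetal liver and liver cancer (ENSMUSG00000055653, chromosome X, 52272426 to 52613950). The SKO libraries held 21, 47 and 33 reads of it and the DKO libraries 34, 33 and 39, or 1.33, 2.58 and 1.86 CPM against 1.43, 1.61 and 2.02 CPM. All DKO values were inside the range of SKO. Gpc3 was not called (adjusted p = 0.662 in edgeR, log2 -0.20 ± 0.29), and the 95% interval of its fold, 0.558 to 1.35, leaves out a rise as large as that of Afp. Its sign turned with total counts (log2 0.02) and without SKO replicate 2 (0.06). Gpc4, the neighbouring glypican gene, was at 60.2 ± 8.21 and 60.4 ± 1.21 CPM (edgeR: adjusted p = 0.978). With Notum, whose product inactivates Wnt proteins, 4 genes of this kind were tested and 0 called. Notum stood at 36.1 ± 5.02 and 43.8 ± 1.82 CPM (adjusted p = 0.0732 in edgeR, log2 0.28 ± 0.10), with every DKO library above SKO. It was called higher with no filter, upper-quartile factors, total counts or without SKO replicate 1 (adjusted p = 0.0207, 0.0393, 0.00635 and 0.0276).

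Igf2 encodes insulin-like growth factor 2, an imprinted growth factor that mouse liver makes before birth (ENSMUSG00000048583, chromosome 7, 142650766 to 142666816). It had 0 reads in each SKO library and 0, 1 and 1 in DKO. Both groups were under 3 counts in all, so no fold is given. Gm49394, annotated on the same strand, shares 3596 exonic bases with Igf2 and had 0 counts, and reads in shared exons may have been dropped in counting. H19, the non-coding gene imprinted together with Igf2, had 4, 2 and 6 reads in SKO and 20, 5 and 3 in DKO. The groups overlapped, and the ratio of their normalised counts was 1.90 (95% counting interval 0.935 to 4.10).

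Receptors and binding proteins of the insulin-like growth factors changed in both directions, with 3 of 12 tested genes higher and 4 lower. Igf2r, the receptor that takes IGF2 to lysosomes, fell from 73.6 ± 5.71 to 42.2 ± 8.76 CPM (adjusted p = 0.00817 in edgeR, log2 -0.80 ± 0.15). Igfals, which holds the circulating complex together, fell from 131 ± 9.02 to 92.7 ± 4.89 CPM (adjusted p = 0.00254 in edgeR, log2 -0.50 ± 0.08). Igfbp2, a binding protein, fell from 202 ± 10.5 to 145 ± 14.1 CPM (adjusted p = 0.00579 in edgeR, log2 -0.48 ± 0.09), and Igfbp7 rose from 78.8 ± 1.53 to 125 ± 25.3 CPM (adjusted p = 0.00797 in edgeR, log2 0.67 ± 0.13). The higher count was 1 without DKO replicate 3. Igfbp1, a binding protein named after its values were seen, rose from 49.7 ± 1.55 to 195 ± 89.1 CPM (adjusted p = 0.0332 in edgeR, log2 1.97 ± 0.41), a call lost with no filter and in 5 of the 6 fits without 1 library (adjusted p up to 0.115). Igfbp5, another one named in that way, fell (adjusted p = 0.0418 in edgeR, log2 -0.69 ± 0.20), a call lost in 5 of those 6 fits (up to 0.121) and with total counts or upper-quartile factors (0.0914 and 0.0570). The median of this list turned from -0.19 to 0.03 with total counts.

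Dlk1 encodes a membrane protein related to Notch ligands and is used to isolate hepatoblasts (ENSMUSG00000040856, chromosome 12, 109452823 to 109463336). It had 0 reads in each SKO library and 9, 1 and 3 in DKO. Each DKO library held at least 1 read, and most came from replicate 1. With SKO set at 3 counts over the group, Dlk1 was 3.53-fold higher in DKO, a value without DKO counting error or library spread. With no filter on low counts edgeR called it higher (adjusted p = 0.0112), which rests on those 13 reads.

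Dlk1 lies in an imprinted domain on chromosome 12, in which the non-coding genes Meg3, Rian and Mirg are transcribed from the other parental copy. Meg3 had 0.826, 0.987 and 1.91 CPM in SKO and 38.9, 3.12 and 12.4 CPM in DKO. Every DKO library was above SKO, with wide spread among them, and Meg3 was not called (adjusted p = 0.105 in edgeR, log2 3.86 ± 1.23). Rian had 0.699, 0.658 and 0.844 CPM in SKO and 18.0, 2.64 and 6.64 CPM in DKO, again without overlap and just over the threshold (adjusted p = 0.0506 in edgeR, log2 3.63 ± 0.91). Rian was called without DKO replicate 1 (log2 2.64, adjusted p = 0.00481), without DKO replicate 2 (4.06, 0.00483), and with upper-quartile factors (0.0456), total counts (0.0297) or a mean of at least 1 CPM (0.0456). Meg3 was called without DKO replicate 2 (log2 4.36, adjusted p = 0.0339) and not without DKO replicate 1 (2.62, 0.121). DESeq2 called both, with adjusted p = 0.00122 for Meg3 and 0.000114 for Rian. Mirg had 0 reads in SKO and 38, 1 and 10 in DKO. With SKO set at 3 counts that is 13.3-fold more over the groups, with the same limits as for Dlk1. Mirg was called higher in edgeR with no filter (log2 6.85, adjusted p = 2.08e-07) and without DKO replicate 2 (0.0134). It was not called when 1 SKO library was left out (adjusted p up to 0.243). Rtl1, Dio3 and Begain, other neighbours of Dlk1, had 0, 1 and 1 reads over SKO and 3, 2 and 4 over DKO. For Dlk1, Meg3, Rian and Mirg, DKO replicate 1 was the highest library and replicate 2 the lowest of DKO.

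**Figure D2:**
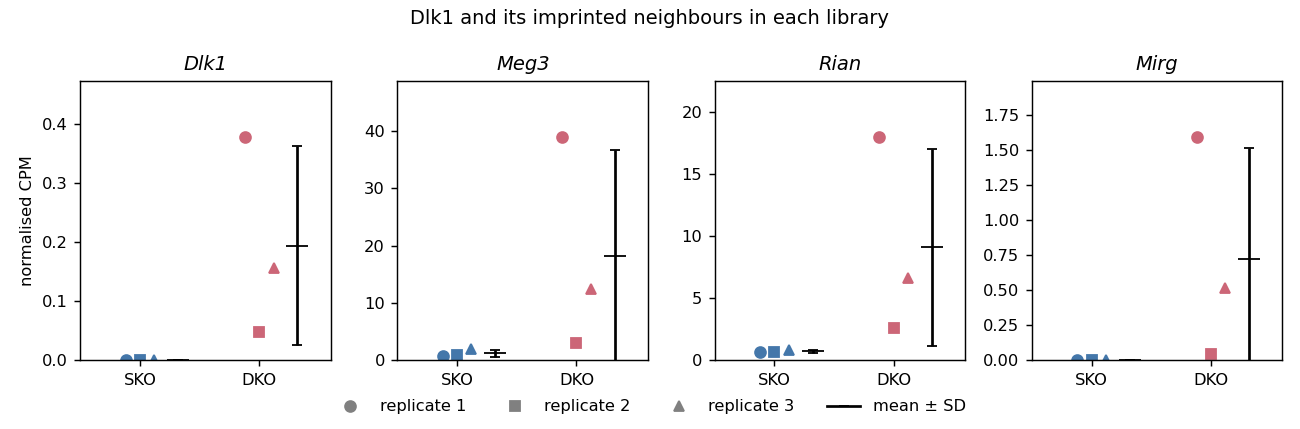
Normalised CPM (linear axes from 0) of Dlk1, Meg3, Rian and Mirg in each SKO (blue) and DKO (red) library, with black bars for mean ± SD (lower bars may end at 0). In each panel the DKO libraries lie above SKO, and DKO replicate 1 is the highest.

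Cd24a encodes a small glycosylated surface protein of hepatoblasts and bile duct cells, also found on B cells, neutrophils and red cell precursors (ENSMUSG00000047139, chromosome 10, 43578284 to 43584265). The SKO libraries held 57, 32 and 36 reads of it and the DKO libraries 212, 99 and 100, or 3.62, 1.75 and 2.03 CPM against 8.90, 4.83 and 5.18 CPM. DKO replicate 1 was highest, and the groups did not overlap. Cd24a rose from 2.47 ± 1.01 to 6.30 ± 2.25 CPM, or 2.59-fold with a 95% interval of 1.54 to 4.36 (adjusted p = 0.0215 in edgeR, log2 1.37 ± 0.33). Without DKO replicate 1 the log2 fold change was 1.04 and the call held (adjusted p = 0.0323). It was lost without SKO replicate 2 (adjusted p = 0.0817) or SKO replicate 3 (0.0763).

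Among the few tested markers of the blood cells that carry CD24, 0 were called higher, beside 10.3% of all genes tested. With so few markers, 0 cannot be told apart from that share. Of 6 B cell markers tested, Ighm was lower, and their summed level was 21.6 to 37.6 CPM in SKO and 12.96 to 18.3 CPM in DKO. Of 7 neutrophil markers 2 were tested and 0 called, with sums of 1.86 to 2.80 and 1.61 to 5.46 CPM, the highest in DKO replicate 1. Of 10 erythroid markers 6 were tested and Klf1 was lower, a call lost in 7 of 12 alternatives (total counts, upper-quartile factors, and without any 1 library except SKO replicate 1), with sums of 312 to 485 and 357 to 439 CPM. Of 5 T cell markers 3 were tested and 0 called, with sums of 2.36 to 3.62 and 3.58 to 5.25 CPM. The part of blood cells in the values of Cd24a was not tested.

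Sox4 encodes a transcription factor of the SoxC family that acts in bile duct development (ENSMUSG00000076431, chromosome 13, 28948919 to 28953713). The SKO libraries held 10, 15 and 22 reads of it and the DKO libraries 77, 23 and 28, or 0.635, 0.822 and 1.24 CPM against 3.23, 1.12 and 1.45 CPM. DKO replicate 2 was inside the SKO range, and DKO replicate 1 was far above all other libraries. Sox4 was not called (adjusted p = 0.111 in edgeR, log2 1.11 ± 0.45), with a 95% interval of its log2 fold change from 0.11 to 2.11, unadjusted. Without DKO replicate 1 the log2 fold change was 0.50 (adjusted p = 0.387). It was called without DKO replicate 2 (1.38, adjusted p = 0.0396) and with no filter (adjusted p = 0.00866). Gm26735, annotated on the other strand, shares 2616 exonic bases with Sox4 and had 0 counts.

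Sox9, a factor of bile duct cells that acts together with Sox4, had 4.83, 6.69 and 4.39 CPM in SKO and 11.6, 6.54 and 3.73 CPM in DKO. The groups overlapped (adjusted p = 0.475 in edgeR, log2 0.47 ± 0.41), and DKO replicate 1 was again highest. Sox12, another SoxC gene, was at 4.03 ± 1.02 and 3.85 ± 0.490 CPM (adjusted p = 0.863 in edgeR, log2 -0.07 ± 0.22). Of 10 tested genes of the Notch pathway, which specifies bile ducts, 0 were higher and 1 was lower. Of all genes tested, 10.3% were higher and 9.70% lower. No filter and total counts each gave 2 higher genes of the Notch pathway. The lower gene was Dll4, a ligand of endothelial cells, which fell from 7.26 ± 1.19 to 4.72 ± 0.271 CPM (adjusted p = 0.0242 in edgeR, log2 -0.62 ± 0.16). Its call was lost with total counts (adjusted p = 0.0978) and without DKO replicate 3, SKO replicate 2 or SKO replicate 3 (0.0779, 0.100 and 0.0796).

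Bicc1 encodes an RNA-binding protein whose loss causes cysts in kidney and bile ducts (ENSMUSG00000014329, chromosome 10, 70922832 to 71159700). The SKO libraries held 75, 89 and 93 reads of it and the DKO libraries 361, 172 and 151, or 4.76, 4.88 and 5.24 CPM against 15.2, 8.40 and 7.83 CPM. SKO libraries were close together, and all DKO libraries were above them. Bicc1 rose from 4.96 ± 0.245 to 10.5 ± 4.07 CPM, or 2.12-fold with a 95% interval of 1.42 to 3.17 (adjusted p = 0.0204 in edgeR, log2 1.08 ± 0.25). Without DKO replicate 1 the log2 fold change was 0.71 and the call held (adjusted p = 0.00969). Leaving out SKO replicate 1, 2 or 3 ended the call (adjusted p = 0.0660, 0.0809 and 0.0573).

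Pkhd1 encodes fibrocystin, a protein of the primary cilium mutated in recessive polycystic kidney disease (ENSMUSG00000043760, chromosome 1, 20057779 to 20618064). The SKO libraries held 124, 107 and 136 reads of it and the DKO libraries 208, 142 and 134, or 7.88, 5.87 and 7.66 CPM against 8.73, 6.93 and 6.95 CPM. The groups overlapped. Pkhd1 was not called (adjusted p = 0.750 in edgeR, log2 0.09 ± 0.16), and the 95% interval of its fold, 0.828 to 1.36, leaves out a rise as large as that of Bicc1. Its sign turned without SKO replicate 2 (log2 -0.05) and without DKO replicate 1 (-0.04).

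Of 17 other genes of cystic disease or the primary cilium, 1 rose and 2 fell, beside 10.3% and 9.70% of all genes tested. Their median log2 fold change was 0.05. Sec61b and Sec63 belong to the machinery that brings proteins into the endoplasmic reticulum. Sec61b fell from 27.0 ± 2.09 to 13.2 ± 2.03 CPM (adjusted p = 0.000504 in edgeR, log2 -1.03 ± 0.12). Sec63 fell from 187 ± 6.41 to 127 ± 5.02 CPM (adjusted p = 0.000992 in edgeR, log2 -0.55 ± 0.07). Alg8, a glucosyltransferase of N-glycan synthesis, rose from 7.39 ± 0.936 to 10.9 ± 0.492 CPM (adjusted p = 0.0141 in edgeR, log2 0.55 ± 0.13).

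Bile duct markers were higher in part. Of 8 cholangiocyte markers 7 were tested and 4 called higher, namely Krt19, Epcam, Spp1 and Prom1. Without SKO replicate 2 or SKO replicate 3 the count was 2, and without DKO replicate 1 it was 3 of 6 tested. Epcam, an adhesion molecule of bile duct cells and hepatoblasts, rose from 2.13 ± 0.527 to 4.97 ± 1.73 CPM (adjusted p = 0.0137 in edgeR, log2 1.24 ± 0.28). Krt19, a keratin gene of bile ducts, rose from 0.974 ± 0.148 to 2.32 ± 0.776 CPM (adjusted p = 0.0191 in edgeR, log2 1.26 ± 0.31). Krt7, Cftr and Muc1 were not called. The summed level of the 8 was 56.7 to 71.2 CPM in SKO and 118 to 196 CPM in DKO. Such sums, here and elsewhere, weigh the most abundant markers most, and Epcam and Krt19 made up little of this one. The part of bile duct cells in the values of Cd24a, Bicc1 and Sox4 was not tested.

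Markers of other cell types moved as well. Of 8 markers of cycling cells 7 were tested and 5 were higher, with sums of 11.3 to 13.1 CPM in SKO and 23.1 to 40.4 CPM in DKO. Of 8 stellate cell and fibroblast markers 5 were higher, with sums of 337 to 403 and 572 to 835 CPM. Without SKO replicate 1, 2 or 3 that count was 2, 1 and 2. Of 9 markers of Kupffer cells and macrophages 5 were higher, with sums of 360.3 to 446 and 470.4 to 721 CPM. This became 3 without SKO replicate 2 or SKO replicate 3, 8 without DKO replicate 2, and 9 with DESeq2, no filter or total counts. Of 6 endothelial markers 0 were called, with sums of 346 to 376 and 321 to 354 CPM. Of 7 hepatocyte markers 5 were lower, with sums of 23402 to 30473 and 15552 to 20753 CPM. Without SKO replicate 2 it was 3 lower, and without DKO replicate 1 it was 4 lower and 1 higher. The cholangiocyte, cycling, stellate, Kupffer, T cell and neutrophil sums were highest in DKO replicate 1, as were Cd24a, Sox4, Bicc1 and Pkhd1, which was not called. Within DKO, replicate 1 was also highest in the B cell and erythroid sums, but not in the endothelial and hepatocyte sums. In Afp the DKO libraries hardly differed. The part of these cells in the members' values was not tested.

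**Figure D3:**
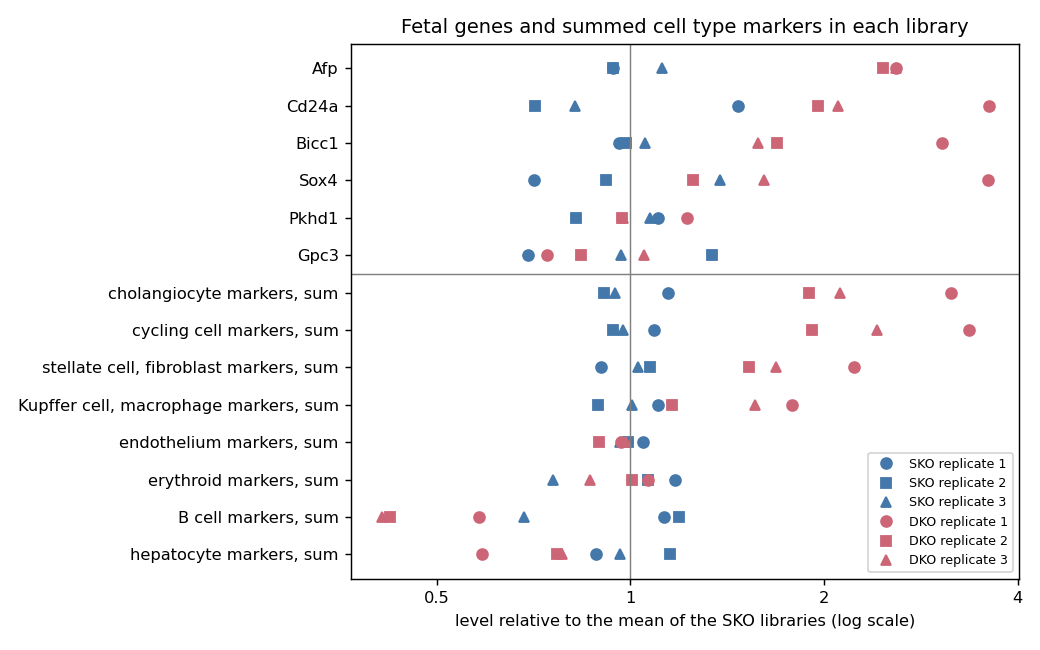
Level of 6 genes (above the line) and summed level of 8 lists of cell type markers (below it) in each library, relative to the mean of SKO, on a log axis, with SKO in blue, DKO in red and 1 shape per replicate. DKO replicate 1 (circle) is highest for Cd24a, Bicc1, Sox4 and Pkhd1 and for the cholangiocyte, cycling, stellate and Kupffer sums. The DKO values of Afp lie together.

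Levels of different genes can be compared only per length, here as CPM per kilobase of exon. In SKO, Cd24a (0.956 ± 0.391), Afp (0.762 ± 0.0785), Gpc3 (0.715 ± 0.232) and Bicc1 (0.667 ± 0.0330) came first, with no neighbours differing beyond their spread. Pkhd1 (0.498 ± 0.0771) and then Sox4 (0.187 ± 0.0644) lay lower, each beyond the spread of its neighbour. In DKO the order was Cd24a (2.44 ± 0.873), Afp (1.94 ± 0.0493), Bicc1 (1.41 ± 0.548), Gpc3 (0.627 ± 0.113), Pkhd1 (0.527 ± 0.0722), Sox4 (0.404 ± 0.237) and Dlk1 (0.0343 ± 0.0297). Bicc1 and Gpc3, now neighbours, differed beyond their spread, as did Sox4 and Dlk1, and the other neighbours did not.

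Other oncofetal and fetal liver genes rose in part. Of 21 listed genes 13 were tested, 5 were higher and 0 lower, with a median log2 fold change of 0.62. Igf2bp3, a fetal RNA-binding protein that binds Igf2 mRNA, had 1.46, 0.493 and 1.46 CPM in SKO and 6.09, 6.79 and 6.79 CPM in DKO. As for Afp, the DKO libraries lay close together, within what counting noise gives. Igf2bp3 rose (adjusted p = 0.000567 in edgeR, log2 2.53 ± 0.30) and was called on leaving out any single library. Scd2, a fatty acid desaturase of embryonic liver, rose from 8.00 ± 1.15 to 17.1 ± 4.12 CPM (adjusted p = 0.00489 in edgeR, log2 1.10 ± 0.19). Igdcc4, a surface protein of the immunoglobulin superfamily, rose from 0.330 ± 0.0908 to 1.36 ± 0.846 CPM (adjusted p = 0.0238 in edgeR, log2 2.05 ± 0.53). Only 4 to 7 reads of Igdcc4 came from each SKO library, against 14 to 55 from each DKO library. Igdcc4 thus passed the filter on low counts through its DKO level, and its fold rests on few SKO reads. Igf2bp3, with 23, 9 and 26 reads in SKO, also passed the filter only with its DKO libraries. The list's count and median include genes that passed in this way. With no filter, 19 genes of the list were tested, 5 were higher and 0 lower, with a median log2 fold change of 0.63. Hmga1, a chromatin protein of embryonic and dividing cells, rose from 3.16 ± 0.373 to 4.83 ± 0.683 CPM (adjusted p = 0.0422 in edgeR, log2 0.62 ± 0.19). The fifth was Plagl1, an imprinted zinc finger gene (adjusted p = 0.0496 in edgeR, log2 0.58 ± 0.18). The higher count was 3 with DESeq2 or without DKO replicate 3, and 2 without DKO replicate 1 or any 1 SKO library. Calls ended for Igdcc4 without DKO replicate 1 or any 1 SKO library (adjusted p up to 0.0852), for Hmga1 without any 1 library except DKO replicate 2 (up to 0.128) and for Plagl1 without any 1 library (up to 0.128). Lin28a and Lin28b, RNA-binding proteins of fetal cells, had 0 reads in all libraries.

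**Figure D4:**
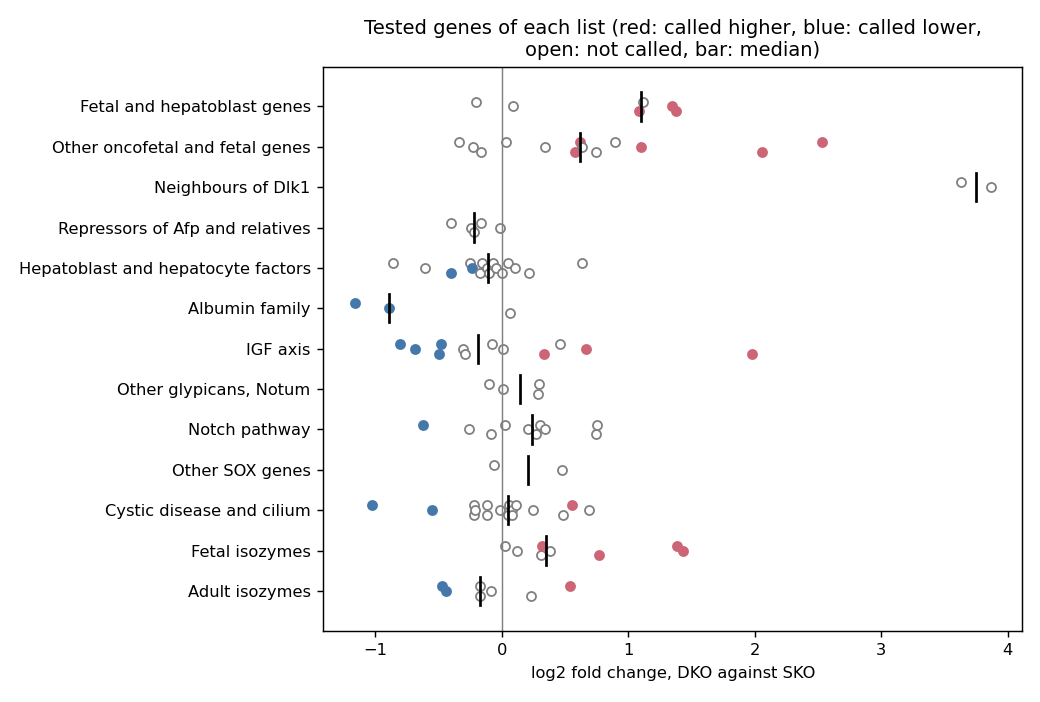
Log2 fold change (DKO over SKO) of each tested gene by list, with red and blue points for genes called higher and lower, open points for the others and black bars for list medians. The 8-gene set and the other fetal genes have medians of 1.10 and 0.62, and the hepatoblast and hepatocyte factors -0.11.

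Of 8 tested isozyme and transporter genes that prevail in fetal liver, 4 rose and 0 fell (median log2 0.35), and 2 rose without SKO replicate 2. Pygb, the brain form of glycogen phosphorylase, rose from 7.93 ± 1.26 to 20.6 ± 5.24 CPM (adjusted p = 0.00268 in edgeR, log2 1.39 ± 0.20). Pkm, the pyruvate kinase of most tissues outside liver, rose from 10.8 ± 1.06 to 18.3 ± 3.20 CPM (adjusted p = 0.00495 in edgeR, log2 0.77 ± 0.14). Hexokinase 2, Hk2, rose from 2.58 ± 0.136 to 6.91 ± 3.04 CPM (adjusted p = 0.0119 in edgeR, log2 1.43 ± 0.30), a call lost without SKO replicate 2 (adjusted p = 0.0544). Aldolase A, Aldoa, rose from 101 ± 7.67 to 126 ± 6.49 CPM (adjusted p = 0.0221 in edgeR, log2 0.32 ± 0.08). Other liver cells also make these enzymes, and their part was not tested. Of 7 adult forms, 2 fell and 1 rose. Liver pyruvate kinase, Pklr, fell (adjusted p = 0.00560 in edgeR, log2 -0.45 ± 0.08). Liver glutaminase, Gls2, fell (adjusted p = 0.0413 in edgeR, log2 -0.47 ± 0.14). Calls ended for Aldoa and for Gls2 in 4 of the 6 fits without 1 library (adjusted p up to 0.0586 and 0.127). The call of Gls2 was also lost with total counts (log2 -0.26, adjusted p = 0.118) and upper-quartile factors (0.0608).

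Of 16 transcription factors of hepatoblasts and hepatocyte identity, 0 were higher and 2 lower, beside 10.3% and 9.70% of all genes tested. DESeq2 gave 1 higher and 4 lower. Foxa1, a forkhead factor, fell from 22.4 ± 1.85 to 16.9 ± 2.59 CPM (adjusted p = 0.0401 in edgeR, log2 -0.40 ± 0.12). Nr5a2, a nuclear receptor that activates Afp, fell from 81.2 ± 0.887 to 68.8 ± 3.34 CPM (adjusted p = 0.0315 in edgeR, log2 -0.24 ± 0.07). Upper-quartile factors and total counts ended both calls (log2 -0.34 and -0.18 for Foxa1, -0.18 and -0.02 for Nr5a2). Leaving out any 1 library did so too, except DKO replicate 1 for Foxa1 (adjusted p up to 0.132) and DKO replicate 2 for Nr5a2 (up to 0.115). Gata6, a zinc finger factor named after its values were seen, had 7.12, 8.55 and 5.52 CPM in SKO and 13.9, 9.32 and 9.54 CPM in DKO. Its groups did not overlap, and it was not called (adjusted p = 0.0558 in edgeR, log2 0.63 ± 0.20). It was called higher with DESeq2, no filter, upper-quartile factors, total counts and without DKO replicate 2 (adjusted p = 0.0280, 0.000251, 0.0438, 0.0169 and 0.0425). Hhex and Cebpa, also named after their values were seen, had every DKO library below SKO. Neither was called (adjusted p = 0.127 and 0.0881 in edgeR, log2 -0.61 ± 0.23 and -0.26 ± 0.10). DESeq2 called both lower (adjusted p = 0.00914 and 0.0388), as did edgeR without DKO replicate 1 for Cebpa (0.0298). Every DKO library was above SKO for 2 of the 16 and below for 4, beside 20.2% and 19.4% of all genes. The list median turned from -0.11 to 0.11 with total counts, under which 2 were higher and 0 lower.

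Genes with like profiles were sought among 12703 others at 1 CPM or more, by the largest difference in any of the 6 libraries in log2(CPM + 0.5) centred on SKO. For Afp they were Art4 (0.16) and Haus8 (0.21), and 11 genes stayed within 0.25. Cd24a lay nearest to Top2a (0.23), a DNA topoisomerase gene of dividing cells, and Src (0.23), with 4 genes within 0.25. Bicc1 was nearest to Mustn1 (0.18) and Prrg4 (0.18), with 24 within 0.25, and Sox4 to Tgfb2 (0.21) and Wdfy4 (0.22), with 2. Gpc3 had Dlgap1 (0.15) and Ttc23 (0.15) and 103 genes within 0.25, and Pkhd1 had Polm (0.07) and Plppr3 (0.08) and 865. These are descriptions of 6 libraries.

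**Figure D5:**
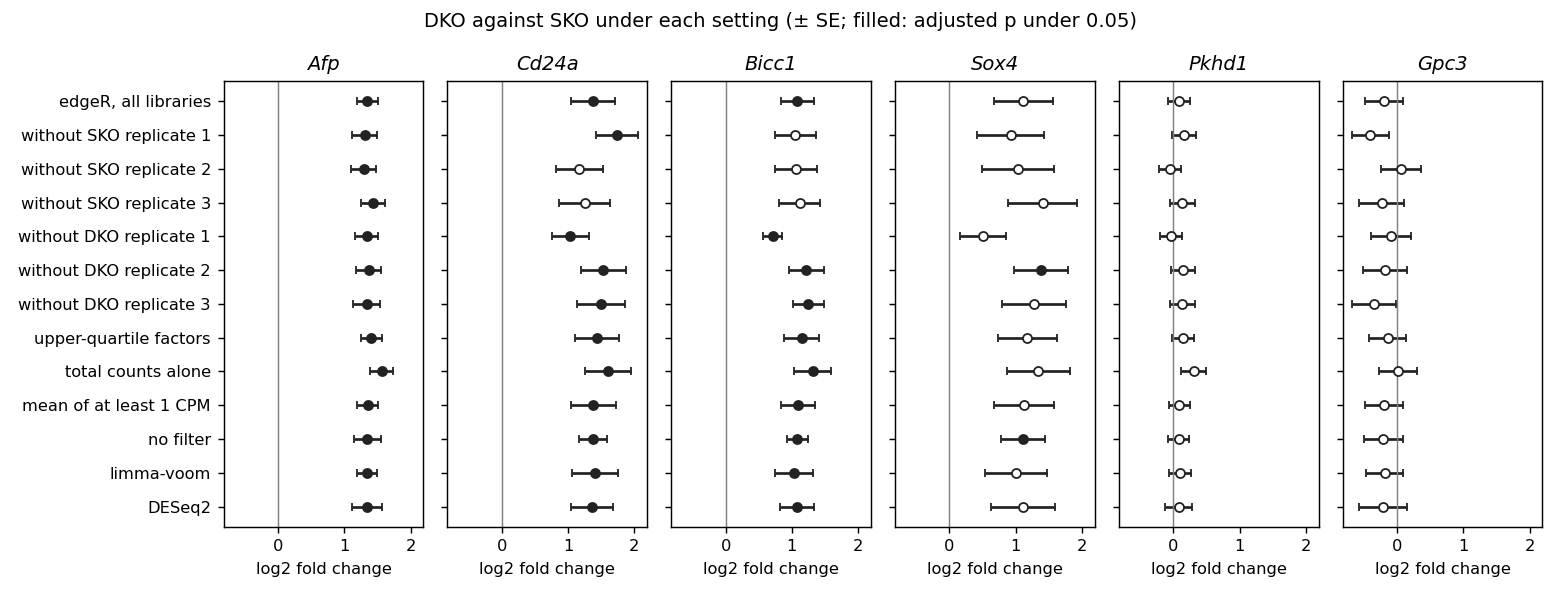
Log2 fold change (± SE) of the 6 tested genes with all libraries in edgeR (top row), without each library, and with other scalings, filters and tools, filled where the adjusted p was under 0.05. Afp is filled in all settings and Gpc3 and Pkhd1 in none, and Sox4 drops to 0.50 without DKO replicate 1.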

How the data were processed

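Liver RNA was extracted with Trizol and sequenced in 3 SKO and 3 DKO libraries, per the labels' protocols. The authors deposited raw read counts for 54232 Ensembl genes in each library. Cutadapt 1.13, STAR, HTSeq 0.6.1p1, DESeq2 and mm10 appear in the submitters' processing notes, without settings, annotation release or use of strand. Overlapping genes may therefore have lost or shared reads.

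Symbols, positions and exon lengths are from GENCODE M21 (54165 identifiers matched). Libraries were grouped by labelled genotype and numbered by accession. Pairs within a group had a chi-square per degree of freedom of 10.2 to 29.4, more than counting noise gives, and each library was kept as its own replicate. After filterByExpr, edgeR 4.0.16 (R 4.3.3) tested counts by robust quasi-likelihood with TMM factors and Benjamini-Hochberg adjustment. Each SE equals the log2 fold change over the root of F. Alternatives were DESeq2 1.42.0, limma-voom (limma 3.58.1), other scalings and filters, and leaving out each library.

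Members and lists were chosen with earlier results of these data known. Named genes are the members, Xbp1 and Nr1h4, up to 4 called genes with the smallest p per gene list (or the 2 of highest mean CPM where 0 were called), 7 related genes and the 2 closest profiles. Cell type markers, Gc, Gata6, Igfbp1, Igfbp5, Mirg, Plagl1, Zhx1, Lin28a and Lin28b were named after their values were seen. So were Hhex, Cebpa, Rtl1, Dio3 and Begain. Some genes of the lists are not reported here by name. Nr1h4 had 98.5 ± 5.93 CPM in SKO and 97.2 ± 3.36 in DKO, and the part of it removed in all these mice is not stated.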

Additional observations from a re-analysis of the deposited data

How the results depend on the processing

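The count of fetal and hepatoblast genes called higher was 3 with DESeq2, limma-voom, upper-quartile factors, total counts and a filter at a mean of 1 CPM. It was 5 without a filter, where Sox4 and Dlk1 were added, and 1 to 4 on leaving out 1 library. None was called lower in any setting. Without SKO replicate 2 or SKO replicate 3 only Afp was called, in fits with fewer libraries. Over the 12 other gene lists, 14 genes were higher and 13 lower. These were 27 and 8 with total counts, and 7 to 17 and 7 to 13 on leaving out 1 library. Over all genes, 1446 were higher and 1357 lower, with 3859 and 538 under total counts, and 674 to 1569 and 745 to 1200 on leaving out 1 library. Leaving out DKO replicate 3, SKO replicate 2 or SKO replicate 3 lowered both counts over all genes by more than 1.5 times. Of 1257 single-gene values for 105 genes, 1135 kept their side of the threshold, 75 lost a call, 47 gained one and 0 reversed a call. The cause of these shifts was not tested. At this depth Gpc3, with 21 to 47 reads per library, has a wide interval, and Dlk1 and Igf2 cannot be ranked between groups beyond the counts given. No paired analysis was possible because the labels give the groups no shared replicate numbers.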
